A study of Mus musculus with 8 samples.

Results

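The collagen genes of the mouse were taken as the protein-coding genes with a symbol of the form Col, a number, a and a number, which gave 44 of the 50599 records measured in each library. The 35 with a mean expected count of at least 10 over the 8 libraries are described here: 9 of 11 fibrillar chains, 8 of 8 chains of basement membranes and 18 of 25 other chains. The remaining 9, Col2a1, Col6a4, Col6a5, Col9a1, Col9a3, Col10a1, Col17a1, Col19a1 and Col24a1, had mean expected counts between 0.25 and 5.

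RNA was sequenced from whole hearts of 12-week-old male C57BL/6N mice, with 4 libraries labelled wildtype and 4 labelled knockout, each from its own mouse. The wildtype mice carried a floxed Lrpprc gene without Cre (Lrpprc loxP/loxP). The knockout mice carried the same floxed gene together with a Cre that deletes it in heart and skeletal muscle (Lrpprc loxP/loxP,cre+), and the driver of this Cre is not named in the sources used here. Lrpprc encodes a protein that binds and stabilises mitochondrial mRNAs, and the collagen-producing cells of a heart are for the most part not the cardiomyocytes.

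Collagens are extracellular proteins in which chains wind around each other into a helix, and the chains of one type are encoded by separate genes. Fibrillar collagens assemble into the tensile fibres of the cardiac interstitium, type IV collagens form the sheet under endothelium and around cardiomyocytes, and the other types decorate fibrils, form beaded filaments or hexagonal networks, or span the cell membrane. In the heart, fibroblasts are the main source of fibrillar collagen, and its build-up is a hallmark of fibrosis.

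The library totals lay between 35218541 and 47743376 expected counts, of which mitochondrial rRNA took 44.0 to 46.9% in wildtype and 65.6 to 67.8% in knockout libraries. Lrpprc itself stood at 3665 ± 216 normalised counts (SD, n = 4) in wildtype and 577 ± 48.6 in knockout hearts, which was 6.35-fold lower in the DESeq2 fit (adjusted p = 3.77e-153), so no library went against its label. A normalised count here is an expected count divided by a factor for library size and for the effective length of the gene in that library. A gene was called higher or lower when the adjusted p of DESeq2, fitted over all records, was under 0.05. Knockout replicate 3 stood apart within its group: it held the lowest knockout value for 27 of the 35 collagens, and its summed collagen level of 34785 lay under that of every wildtype library (34825 to 40539), while the other knockout libraries summed to 74765, 101806 and 82583. Counts and the estimates of called chains are therefore given with and without this library. Knockout replicate 2 was at the other end, with the highest knockout value for 24 of the 35.

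Across the 35 collagens, 15 were higher in the knockout, 2 were lower and 18 passed in neither direction, and the median log2 fold change was 0.63. Among all 19959 records tested, 18.2% were called higher and 15.5% lower, with a median of 0.01; among the 13282 protein-coding genes with the same count minimum these shares were 24.6% and 17.9%, with a median of 0.07. Without knockout replicate 3 the collagens called higher rose to 20 and those called lower stayed at 2, and the median became 0.70. The shares called were then 18.4% and 16.2% of all records. Among protein-coding genes with the same count minimum they were 25.6% and 19.3%. All 17 calls made with the library were made without it, and Col5a1, Col6a1, Col6a2, Col26a1 and Col27a1 were gained. In 9 collagens every knockout value lay above every wildtype value and in 1 below, where 16.7% and 16.4% of all records did so. Of the 13282 protein-coding genes with the same count minimum, 2950 lay above and 2344 below in this way. With replicate 3 left out the collagens without overlap became 19 and 2, against 20.5% and 20.4% of all records. Of 13286 protein-coding genes with that minimum, 3597 and 2905 were then without overlap.

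**Figure D1:**
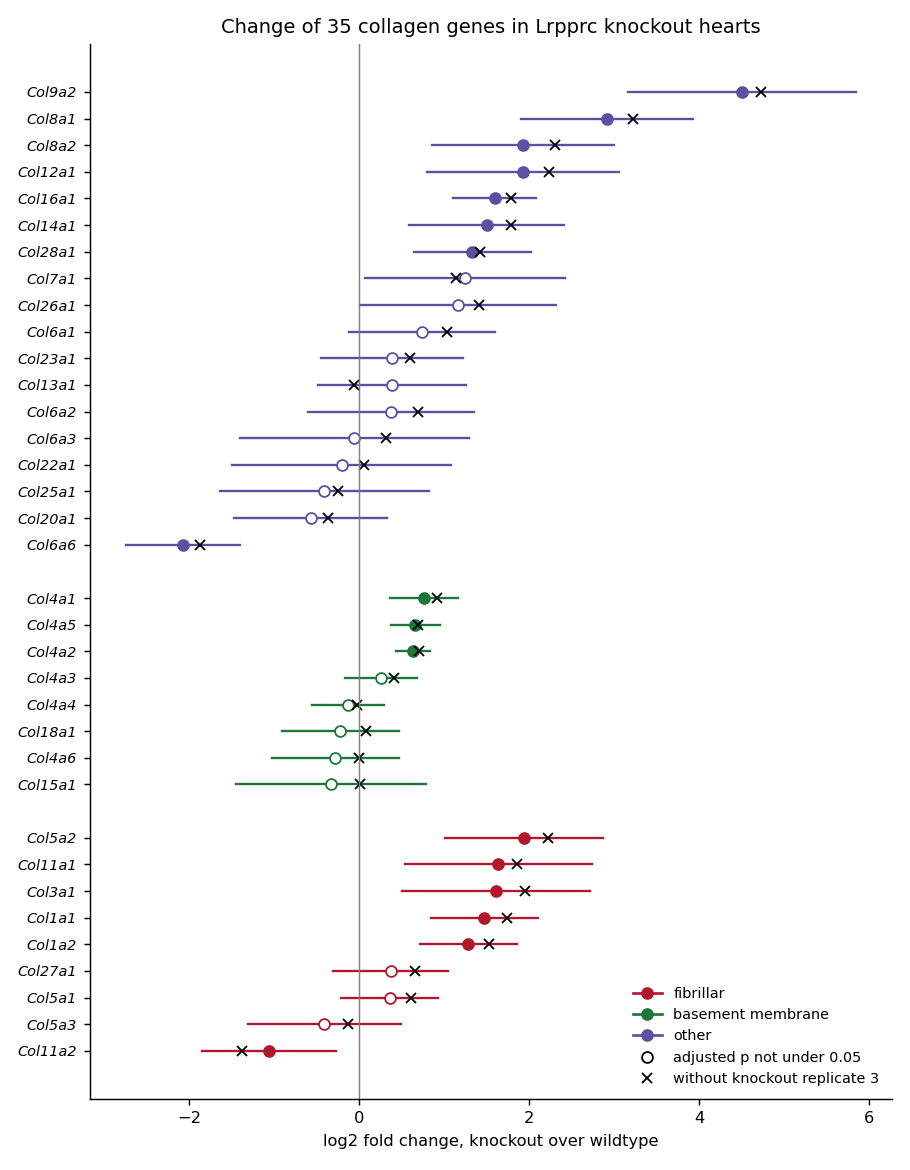
Log2 fold change, knockout over wildtype, of the 35 described collagen genes from DESeq2, with bars for the 95% interval; filled points have an adjusted p under 0.05 and crosses give the estimate without knockout replicate 3. Fibrillar estimates run from -1.06 to 1.94, basement membrane estimates from -0.33 to 0.76 and those of the other chains from -2.07 to 4.51.

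By class, 5 of 9 fibrillar chains were higher and 1 was lower, with a median log2 fold change of 1.29. Of the 8 basement membrane chains 3 were higher and 0 lower, with a median of 0.06, and of the 18 other chains 7 were higher and 1 lower, with a median of 0.95. Without knockout replicate 3 the fibrillar count was 7 higher and 1 lower with a median of 1.53, the basement membrane count stayed at 3 and 0 with a median of 0.24, and the other chains had 10 higher and 1 lower with a median of 1.09. Without knockout replicate 2 the fibrillar, basement membrane and other medians were 0.93, 0.10 and 0.52. Each count of 0 lower in a class, and in the families below, was also 0 at an unadjusted p under 0.05 and with edgeR. The difference between the classes was not tested, since the chains of a class are not replicates. The basement membrane median was -0.23 when libraries were scaled to their total counts, a scaling that moved the median of all records with a mean count of at least 10 by -0.30; under it the fibrillar and other medians were 1.02 and 0.69. With total counts without mitochondrial rRNA, which moved that median by 0.43, the basement membrane and fibrillar medians were 0.50 and 1.73. With the main size factors the type IV chains alone had a median of 0.44. Because these are bulk hearts, more collagen-making cells and more transcript per cell cannot be told apart, and likewise fewer cells of a type and less RNA per cell.

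The promoters of 3 chains called higher, the fibrillar Col1a2 and Col3a1 and the network chain Col8a1, are shown to set their upstream letters side by side. They are the 250 bases before the RefSeq start (GRCm38.p6) of Col1a2 (chr6:4505368-4505617, plus strand), Col3a1 (chr1:45311288-45311537, plus strand) and Col8a1 (chr16:57754738-57754987, minus strand), with capitals for matches, on either strand, of the TATA box TATAAA, the CCAAT box CCAAT and the GC box GGGCGG.
Col1a2: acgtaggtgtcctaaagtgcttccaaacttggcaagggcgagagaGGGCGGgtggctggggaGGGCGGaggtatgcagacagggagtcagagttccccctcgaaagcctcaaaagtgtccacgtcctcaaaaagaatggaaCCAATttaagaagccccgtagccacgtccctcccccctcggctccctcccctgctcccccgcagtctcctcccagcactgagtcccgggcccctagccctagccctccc
Col3a1: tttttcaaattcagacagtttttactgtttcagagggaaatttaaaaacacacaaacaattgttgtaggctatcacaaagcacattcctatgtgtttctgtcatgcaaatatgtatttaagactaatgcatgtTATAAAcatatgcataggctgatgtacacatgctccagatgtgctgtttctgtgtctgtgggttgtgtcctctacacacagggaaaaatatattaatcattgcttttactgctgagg
Col8a1: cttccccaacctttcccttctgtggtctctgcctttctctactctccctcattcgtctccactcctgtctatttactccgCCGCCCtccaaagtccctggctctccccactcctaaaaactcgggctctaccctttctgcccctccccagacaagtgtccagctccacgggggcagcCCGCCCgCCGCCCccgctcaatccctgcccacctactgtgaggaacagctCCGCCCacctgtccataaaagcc
The upstream sequence of Col1a2 held 2 GC boxes and 1 CCAAT box, that of Col3a1 held 1 TATA box and no GC box, and that of Col8a1 held 4 GC boxes, so no single pattern was in all 3.

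RefSeq windows of 300 bases, reaching 50 bases past the start, were found for 28 of the 35 collagens, 11 of them called higher. The GC box was in 20 of these 28 windows, against 35.7% of all 32851 windows. The 28 were limited to a single window per gene and to protein-coding genes past the count minimum, and the 32851 were not. The shares therefore compare unlike sets. CCAAT was in 10 of 28, against 37.4% of all windows, and TATAAA in 3 (Col3a1, Col11a2 and Col13a1), against 13.6%. The letters TGANTCA of an AP-1 site were found only in the Col6a1 window of the 28 (7.81% of all windows), and TGATGNAA, the C/EBP-ATF element, in 0 of 28 (3.97% of all windows). None of these patterns overlapped another in the 3 sequences shown. A match describes letters and not a bound site.

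Type I collagen, the main tensile collagen of the heart, rose in both of its chains. Col1a1 stood at 656, 795, 709.7 and 722 normalised counts in wildtype replicates 1 to 4 and at 1660.4, 3228, 769 and 2355 in knockout replicates 1 to 4. Its log2 fold change was 1.48 ± 0.32 (SE, adjusted p = 3.21e-05), and 1.74 without knockout replicate 3, the only knockout library inside the wildtype range. Col1a2 was 1906, 2319.5, 2158 and 2154 in wildtype against 4017, 8066, 2349.9 and 6374 in knockout hearts, with no overlap. Its log2 fold change was 1.29 ± 0.29 (adjusted p = 8.35e-05), a 2.44-fold higher fitted level, and 1.53 without replicate 3.

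Col3a1, which encodes the single chain of the type III collagen found in the finer, more compliant fibrils, was the fibrillar transcript with the highest level per length. It stood at 5465, 5056, 5505 and 5756 in wildtype hearts and at 13698, 29509, 3645 and 19917 in knockout hearts. Here replicate 3 was below every wildtype library and the others were above. The log2 fold change was 1.62 ± 0.56 (adjusted p = 0.0152) and became 1.95 (adjusted p = 1.45e-22) without replicate 3. The call was lost without knockout replicate 2 (1.19, adjusted p = 0.089) and without knockout replicate 4 (1.52, adjusted p = 0.0644). It was also lost without wildtype replicate 1 (1.62, adjusted p = 0.051), without wildtype replicate 2 (1.58, adjusted p = 0.0565) and under scaling to total counts (1.36, adjusted p = 0.055). Next to Col3a1 on chromosome 1 (chr1:45311538-45349706), 24614 bases away and on the opposite strand, lies Col5a2 (chr1:45374321-45503282).

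Type V collagen is built mostly of Col5a1 and Col5a2 chains and regulates the width of type I fibrils. Col5a2 was 1058, 919, 1382 and 1012 in wildtype and 2987, 7233, 1509.9 and 5062 in knockout hearts, so that the groups did not overlap. The log2 fold change of 1.94 ± 0.47 (adjusted p = 0.00028; 2.22 without replicate 3) was the largest of the fibrillar class. Col5a1 was 929.7, 1093, 845 and 1019 against 1126, 1796, 521 and 1544, a log2 fold change of 0.36 (adjusted p = 0.374, 95% interval -0.22 to 0.93) that became 0.61 (adjusted p = 0.000508) without replicate 3. Col5a3 had a log2 fold change of -0.41 (adjusted p = 0.541) and ranged from 549 to 762 in wildtype and from 185 to 756 in knockout hearts.

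The minor fibrillar chains of type XI, which in cartilage nucleate type II fibrils, were low and moved in opposite directions. Col11a1 was 10.7, 11.3, 11.2 and 5.22 in wildtype and 16.4, 59.8, 14.3 and 21.8 in knockout hearts (log2 fold change 1.64 ± 0.56, adjusted p = 0.0134). These values lean on the length correction, since the expected counts behind them were 10, 17, 17 and 11 against 4, 79, 8 and 27. The call was lost with no length offset (1.36, adjusted p = 0.15), without knockout replicate 2 (0.93, adjusted p = 0.231), without wildtype replicate 4 (1.41, adjusted p = 0.0686) and with total-count scaling (1.36, adjusted p = 0.0508), and it was 1.86 without knockout replicate 3. Col11a2 was 33, 57.7, 102 and 68.1 against 27.4, 20.1, 52.1 and 27.7 (log2 fold change -1.06 ± 0.40, adjusted p = 0.0286; -1.37 without replicate 3). That call was lost when any of knockout replicates 1, 2 and 4 or wildtype replicates 2, 3 and 4 was left out. The log2 fold change was then -0.77 without wildtype replicate 3 and between -1.11 and -0.88 in the others. Col27a1, a fibrillar chain of cartilage, had a log2 fold change of 0.37 (adjusted p = 0.44) and 0.65 (adjusted p = 0.00452) without replicate 3.

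**Figure D2:**
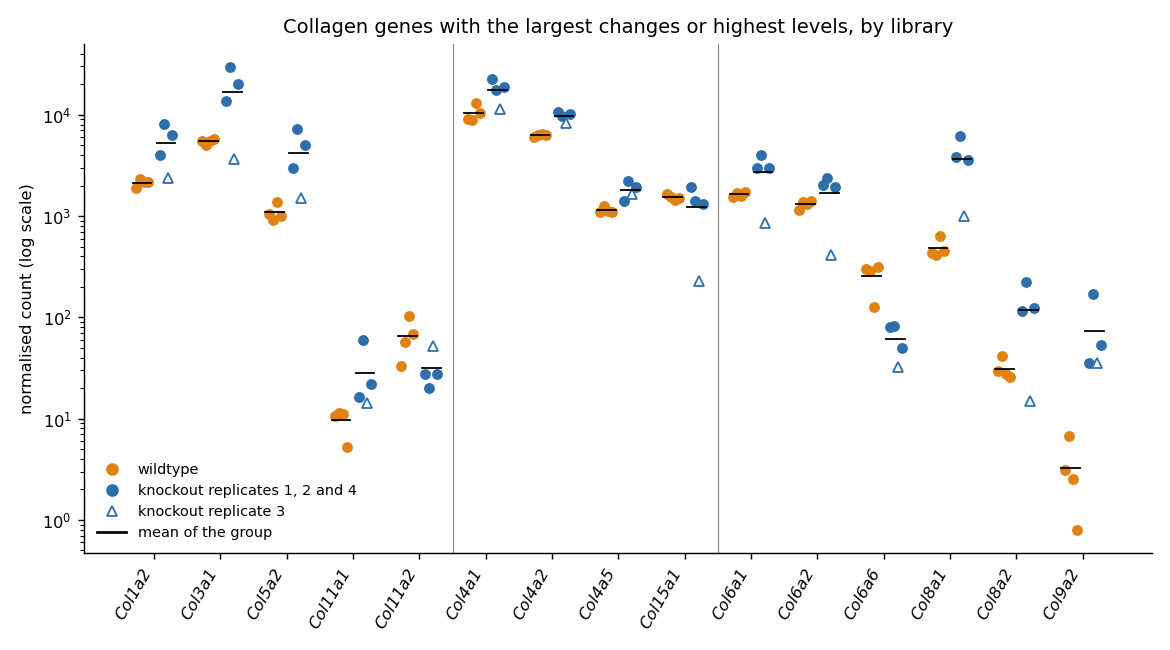
Normalised counts on a log scale, by library, of the collagen genes named by their change or level in each class: fibrillar on the left, basement membrane in the middle, other chains on the right; bars are group means and the open triangle is knockout replicate 3. The triangle is the lowest knockout value for Col3a1 (3645), Col15a1 (227), Col4a2 (8220.0) and Col8a1 (996), below all wildtype values for Col3a1 and Col15a1 and above them for Col4a2 and Col8a1.

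Among the basement membrane collagens, the widely expressed type IV chains Col4a1 and Col4a2 were both higher. Col4a2 was 6019, 6317, 6404 and 6367 in wildtype and 10683, 9708, 8220.0 and 10238 in knockout hearts. All knockout libraries, replicate 3 included, lay above the wildtype range, and the log2 fold change was 0.63 ± 0.10 (adjusted p = 9.3e-09; 0.70 without replicate 3). Its partner Col4a1 was 9042, 8788, 13027 and 10485 against 22492, 17469.9, 11496 and 18727 (0.76 ± 0.20, adjusted p = 0.000984; 0.92 without replicate 3), with replicate 3 inside the wildtype range. These genes start head to head and overlap by 22 bases (Col4a1 at chr8:11198423-11312826 on the minus strand, Col4a2 at chr8:11312805-11449287 on the plus strand). With total-count scaling the Col4a1 call was lost (0.48, adjusted p = 0.0704).

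The type IV chains with a narrower distribution in tissues gave 1 call among 4. Col4a5, best known from the glomerular basement membrane, was 1095, 1252, 1117 and 1085 in wildtype and 1403, 2206, 1666 and 1916 in knockout hearts, with no overlap (log2 fold change 0.66 ± 0.15, adjusted p = 6.25e-05; 0.69 without replicate 3). This call too was lost with total-count scaling (0.37, adjusted p = 0.077). Col4a6, which lies head to head with Col4a5 on the X chromosome with 1308 bases between them, had a log2 fold change of -0.28 (adjusted p = 0.628, 95% interval -1.02 to 0.47). The pair Col4a3 and Col4a4, 71 bases apart and also head to head, had log2 fold changes of 0.26 (adjusted p = 0.384) and -0.13 (adjusted p = 0.69).

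Col15a1 and Col18a1 encode the multiplexins, collagens with chains that carry sugar polymers and anchor basement membranes to the tissue beneath. Col15a1 was 1664, 1553, 1437 and 1506 in wildtype and 1954, 1402, 227 and 1311 in knockout hearts. The very low value of replicate 3 set the estimate of -0.33 ± 0.57 (adjusted p = 0.709), which was 0.01 (adjusted p = 0.954) without it. Col18a1 was 265 to 352 in wildtype and at 270.2, 341, 84.6 and 409.5 in knockout hearts (-0.22, adjusted p = 0.686; 0.08 without replicate 3).

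The short-chain network collagens of type VIII, which form hexagonal lattices in vessel walls and valves, gave the largest rise after that of Col9a2. Col8a1 (normalised counts 435, 413, 633 and 447 in wildtype) reached 3793, 6187, 996 and 3592 in knockout hearts. Every knockout library exceeded every wildtype library, and the fitted level was 7.55-fold higher (log2 fold change 2.92 ± 0.51, adjusted p = 1.71e-07; 3.23 without replicate 3). Col8a2, the other chain of this type, was 29.7, 41.6, 27.8 and 25.7 against 116, 222, 15 and 123 (1.93 ± 0.55, adjusted p = 0.00201; 2.30 without it), with replicate 3 below all wildtype values.

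The fibril-associated collagens, which coat fibrils and link them to other matrix, had 4 of 6 described chains higher and 0 lower, with a median log2 fold change of 1.55. Col9a2, a cartilage chain, went from 3.13, 6.67, 2.56 and 0.791 normalised counts in wildtype to 35.1, 169.6, 35.6 and 52.7 in knockout hearts, with no overlap. The log2 fold change of 4.51 ± 0.68 (adjusted p = 7.6e-10, and 4.73 without replicate 3) was the largest of the 35. It rests on wildtype expected counts of 3, 7, 3 and 1, against 32, 142, 29 and 57 in knockout hearts. Col9a2 thus met the count minimum of 10 only through the knockout libraries, and its place among the 35 depends on the rise itself. The counts and medians of its class and family include it. Its log2 fold change was 3.69 without knockout replicate 2 and 5.12 without wildtype replicate 2. The chains that complete type IX collagen, Col9a1 and Col9a3, had mean expected counts of only 1.88 and 5. Col12a1 and Col14a1, which bind type I fibrils in soft tissue, had fitted levels that were 3.80-fold (adjusted p = 0.00375) and 2.83-fold (adjusted p = 0.00576) higher, and 4.71-fold and 3.44-fold higher without replicate 3. For these, replicate 3 lay within the wildtype range at 139 (113 to 178) and 453 (436 to 502), and the other knockout libraries ran from 333 to 999 and from 973 to 2290.5. Col16a1 was 166 to 183 in wildtype and 452, 743, 294 and 596 in knockout hearts (1.60 ± 0.25, adjusted p = 2.59e-09; 1.79 without replicate 3), so here replicate 3 also lay above the wildtype range. Col20a1 and Col22a1 gave log2 fold changes of -0.57 and -0.20, neither past the test. The Col22a1 value was 0.51 without wildtype replicate 2 and -0.87 without knockout replicate 2, also without a call.

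The beaded filament collagens of type VI, which surround cells in the muscle interstitium, gained 2 calls when replicate 3 was left out. Col6a1 was 1536, 1675, 1574 and 1741 in wildtype and 3009.6, 4049.5, 855 and 2984 in knockout hearts. With all libraries its log2 fold change was 0.74 (adjusted p = 0.192), and without replicate 3 it was 1.03 (adjusted p = 7.64e-16). Col6a2 went from 0.37 (adjusted p = 0.613) to 0.70 (adjusted p = 8.78e-09) in the same way. Col6a3 stayed without a call, at -0.06 (adjusted p = 0.962) with and 0.32 (adjusted p = 0.102) without that library, in which it stood at 148 normalised counts against 1390 to 2023 in the other knockout hearts.

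Col6a6, an additional type VI chain related to Col6a3, was the collagen with the largest fall. It was 301, 287, 128 and 316 in wildtype and 79.8, 82.5, 32.6 and 49.6 in knockout hearts, which did not overlap. The log2 fold change was -2.07 ± 0.34 (adjusted p = 1.68e-08), a 4.20-fold lower fitted level, and it was -1.87 without replicate 3. Its neighbours on chromosome 9, Col6a5 and Col6a4, were under the count minimum.

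Of the transmembrane chains Col13a1, Col23a1 and Col25a1, 0 passed the test in DESeq2, at an unadjusted p under 0.05 or with edgeR. Their log2 fold changes lay between -0.41 and 0.39 with all 8 libraries. Single libraries moved them: Col25a1 was -1.05 without knockout replicate 1, Col13a1 -0.05 without knockout replicate 3 and Col23a1 -0.16 without knockout replicate 4. In the remaining group Col28a1 was 19.1, 18.2, 20.8 and 29.7 in wildtype and 36.6, 85, 44.3 and 54.6 in knockout hearts (1.33 ± 0.35, adjusted p = 0.000793; 1.42 without replicate 3), with no overlap. Col7a1, the anchoring fibril chain of skin, and Col26a1 had log2 fold changes of 1.25 (adjusted p = 0.098) and 1.17 (adjusted p = 0.115). The Col7a1 value was 0.32 (adjusted p = 0.544) with no length offset, its expected counts being 18, 19, 21 and 19 in wildtype and 13, 23, 16 and 30 in knockout hearts. A Col7a1 call was gained without knockout replicate 1 (1.64, adjusted p = 0.00816) and with total counts without mitochondrial rRNA (1.67, adjusted p = 0.016). The Col26a1 call was gained without replicate 3 (1.41, adjusted p = 0.0429) and with no length offset (1.47, adjusted p = 0.0207), while its log2 fold change was 0.38 (adjusted p = 0.647) without knockout replicate 2.

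Levels per length, in TPM, transcripts scaled to a fixed total per library, show how the collagen transcript pool was made up. Basement membrane chains took 50.7% ± 2.04 (SD, n = 4) of summed collagen TPM in wildtype and 42.2% ± 13.6 in knockout hearts. The difference of -8.46 percentage points became -14.0 without knockout replicate 3, -3.53 without knockout replicate 2 and -4.04 with type IV chains only. Other chains took 16.5% ± 1.07 and 16.1% ± 2.96. Fibrillar chains took a mean of 32.8% in wildtype and 41.7% ± 11.1 in knockout hearts, where the libraries differed widely; the difference was 8.91 points, 13.1 without replicate 3 and 4.91 without knockout replicate 2. The fibrillar share was 36.2, 53.7, 29.1 and 47.8% in knockout replicates 1 to 4 against 31.1 to 33.7% in wildtype hearts, so 3 libraries lay above the wildtype range and replicate 3 below it. Col4a1 held the largest share of any chain in wildtype hearts at 26.9%, followed by Col3a1 at 19.2% and Col4a2 at 13.4%, and in knockout hearts the means were 25.02, 26.2 and 11.9%. Col8a1 went from 1.25% ± 0.19 to 4.38% ± 1.17 and Col15a1 from 6.17% ± 0.76 to 2.27% ± 1.17, in both cases without overlap between groups. The level of Col15a1 itself had no call (DESeq2 log2 fold change -0.33, adjusted p = 0.709), and a share can fall when other chains rise. Its effective length, which enters the TPM, ran from 1646 to 4136 bases across the libraries. No test was run on the shares.

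**Figure D3:**
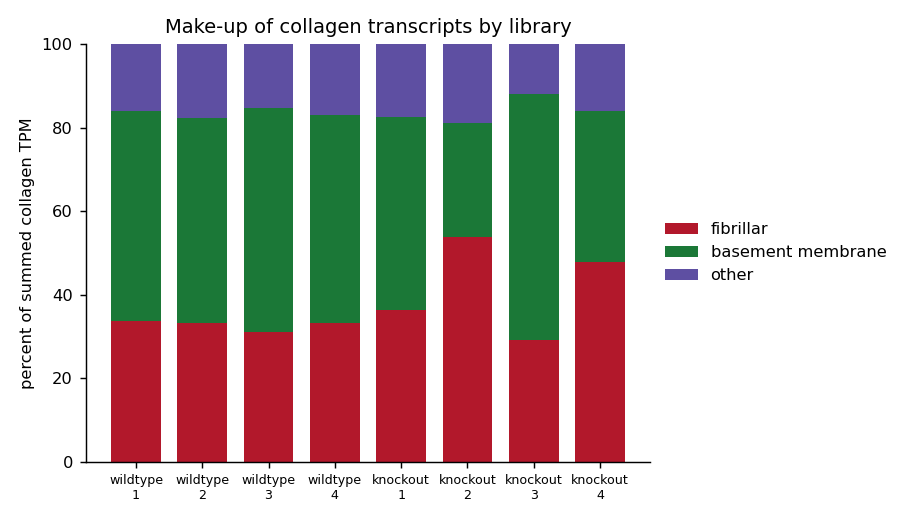
Share of summed collagen TPM taken by fibrillar, basement membrane and other chains in each of the 8 libraries, in percent. The wildtype bars are alike, with 49.0 to 53.6% from basement membrane chains, while knockout replicate 2 has 27.4% and knockout replicate 3 has 59.0%.

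Ratios of TPM between chains that share a helix or a fibril were compared in 7 pairs, by an exact two-sided permutation test over the 70 assignments of libraries, which allows no p below 0.0286. In 4 pairs the groups did not overlap, and each of these reached that smallest p = 0.0286 in the exact test, with an adjusted p of 0.05 over the 7 pairs, which is on the threshold and not under it. Col5a1 over Col5a2 was 0.642, 0.869, 0.447 and 0.736 in wildtype and 0.275, 0.181, 0.252 and 0.223 in knockout hearts, a log2 difference of -1.51. Col6a3 over Col6a1 went from 0.408 ± 0.0498 to 0.208 ± 0.0885 (log2 difference -1.11), with 0.0824 in replicate 3 and 0.222 to 0.289 in the other knockout libraries. Col6a1 over Col6a2 went from 1.24 ± 0.0645 to 1.68 ± 0.255 (log2 difference 0.42), and Col8a1 over Col8a2 from 13.6 ± 4.52 to 32.9 ± 15.5 (log2 difference 1.23), with 56.0 in replicate 3. In these pairs replicate 3 lay on the same side of the wildtype range as the other knockout libraries, and without it the log2 differences, in the order given, were -1.55, -0.71, 0.33 and 0.95 (exact permutation tests, adjusted p = 0.05 for the first 3 and 0.08 for the last).

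In the other 3 pairs the ratios overlapped. Col1a1 over Col1a2 was 0.289 ± 0.00611 in wildtype and 0.323 ± 0.0327 in knockout hearts (exact permutation p = 0.143, adjusted 0.2), and without replicate 3 the log2 difference of 0.16 became 0.22 (exact permutation, adjusted p = 0.05). Col4a1 over Col4a2 was 2.02 ± 0.345 against 2.19 ± 0.358 (exact permutation p = 0.486, adjusted 0.567). Col3a1 over Col1a1 was 11.3 ± 1.28 against 11.4 ± 2.94 (exact permutation p = 0.971), with 7.05 in replicate 3 and 12.3 to 13.6 in the other knockout libraries. A p that misses the threshold does not show that these ratios were alike.

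**Figure D4:**
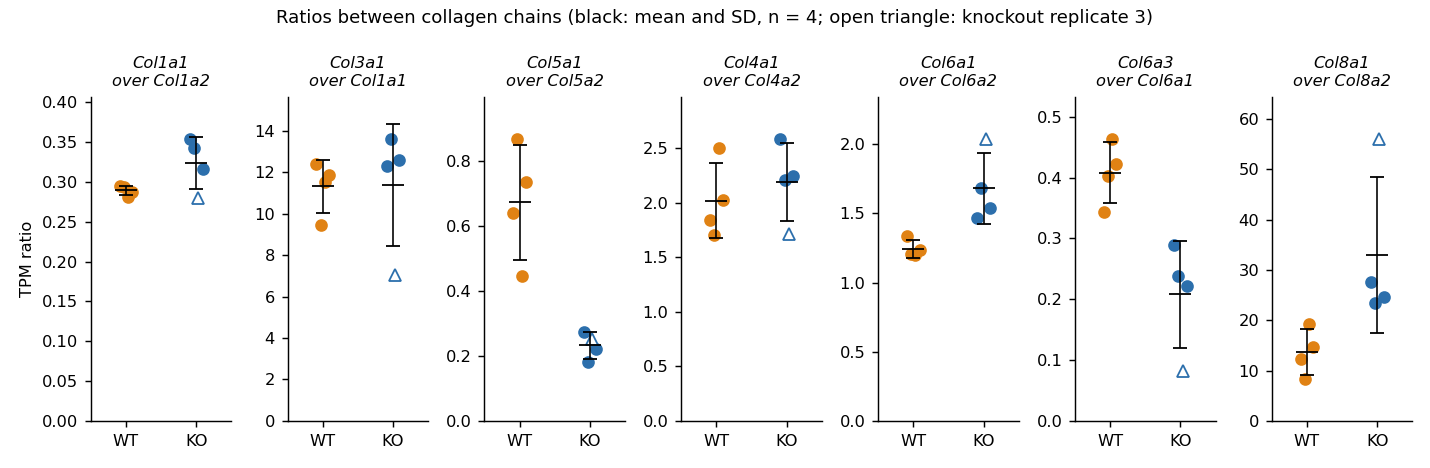
TPM ratios between 7 pairs of collagen chains by library in wildtype (WT) and knockout (KO) hearts, each on its own linear axis from 0, with black bars for the mean and SD of 4 libraries and an open triangle for knockout replicate 3. The groups are separate for Col5a1 over Col5a2, Col6a1 over Col6a2, Col6a3 over Col6a1 and Col8a1 over Col8a2.

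Genes that make, process and remove collagen gave the following counts, to be read against the shares of protein-coding genes called higher and lower, 24.6% and 17.9%. Of 14 genes that cleave procollagen or cross-link fibrils, 6 were higher and 2 lower (median log2 fold change 0.61), among them the lysyl oxidases Lox (3.05, adjusted p = 7.4e-18), Loxl4 (2.91) and Loxl3 (1.95), the procollagen N-proteinase Adamts2 (adjusted p = 1.6e-06) and the C-proteinase Tll1 (2.03). The related Tll2 was called lower on expected counts of 15, 14, 18 and 17 in wildtype and 1, 0, 0 and 2 in knockout hearts. Pxdn, the peroxidase that cross-links type IV collagen, was also lower (-0.92, adjusted p = 0.0033). Of 23 genes that modify and fold chains in the endoplasmic reticulum, 6 were higher and 2 lower (4 and 1 with edgeR; median 0.21), a share of higher genes near that of protein-coding genes, with P3h2, a prolyl 3-hydroxylase, at 0.82, P4hb, the shared subunit of prolyl 4-hydroxylase, at 0.70, the glycosyltransferase Colgalt2 at -0.84 (adjusted p = 0.035) and P3h4 at -0.45 (adjusted p = 0.047; -0.44 and 0.0701 without replicate 3). Serpinh1, the collagen chaperone, had a log2 fold change of -0.33 (adjusted p = 0.43). Of 17 proteases and inhibitors of collagen breakdown, 9 were higher and 2 lower (median 0.67), with the inhibitor Timp1 at 3.70, the cysteine protease Ctsk at 2.25 and the gelatinases Mmp9 and Mmp2 at 2.36 and 0.81, whereas the membrane protease Mmp15 was at -1.98.

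Receptors, partners and TGF-beta genes gave these counts, and shares near 24.6% higher and 17.9% lower, those of protein-coding genes, are no result about a list. Of 11 collagen receptors, Cd44 (1.24) and Itgb1 (0.35) were higher and 0 were lower (also 0 at an unadjusted p and with edgeR), and the discoidin receptor Ddr2 had 0.29 (adjusted p = 0.30). Of 12 fibril partners, 11 with an adjusted p, the proteoglycan Bgn (1.34), the matricellular protein Sparc (1.11) and the cartilage protein Comp (1.93) were higher and Tnxb (-0.54) was lower. Of 10 basement membrane partners, Lamc1 (0.37) and Nid1 (0.29) were higher and Hspg2, perlecan, was lower (-0.49), with a median of -0.08. With edgeR 1 of this list was higher and 1 lower, and at an unadjusted p under 0.05 in DESeq2 2 were higher and 4 lower. Of 14 genes of TGF-beta signalling, a main inducer of fibrillar collagen, Ltbp2 (2.18), Tgfb2 (2.17) and Smad7 (0.56) were higher, Tgfbr3 (-0.81) and Ltbp1 (-0.61) were lower, and Tgfb1 had -0.02 (adjusted p = 0.97). Without knockout replicate 3, where 25.6% and 19.3% of protein-coding genes were called higher and lower, the counts became 8 and 2 for processing and cross-linking, 9 and 1 for modification and folding, 8 and 2 for breakdown, 6 and 0 for receptors, 6 and 1 for fibril partners, 4 and 3 for basement membrane partners, and 4 and 3 for TGF-beta signalling.

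Markers of the cell types in a heart are given beside the collagens, and their part in the collagen changes was not tested. Their counts too are to be read against 24.6% higher and 17.9% lower among protein-coding genes. Of 7 fibroblast markers Mfap5 alone was called, as higher (2.30), the median was 0.36, and without replicate 3 there were 3 higher and 1 lower with a median of 0.59. Their summed normalised counts were 11112 to 11947 in wildtype and 11964, 16536, 11119 and 15951 in knockout hearts. Pdgfra, the receptor that marks resident fibroblasts, had a log2 fold change of -0.06 (adjusted p = 0.84). Of 8 endothelial markers 0 passed in either direction with DESeq2 or edgeR (at an unadjusted p under 0.05, 1 was higher and 2 were lower; without replicate 3, 2 were higher), and their sum was 19278 to 21446 in wildtype and 24050, 17734, 14439 and 20018 in knockout hearts, with replicate 3 the lowest knockout library for 8 of 8. Of 7 macrophage markers 6 were higher (4 with edgeR, 7 without replicate 3), with sums of 2917 to 3751 in wildtype and 4029, 8003, 3669 and 6834 in knockout hearts, so replicate 3 was again the lowest. Cardiomyocyte markers were lower in 5 of 6 (6 without replicate 3), with sums of 900189 to 1005680 in wildtype and 416539 to 542957 in knockout hearts.

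The markers of other tissues that could be present are given for the same reason. Atrial markers were lower in 2 of 4 (Myl7 -3.54, Sln -2.84; 3 without replicate 3), with sums of 9980 to 12038 in wildtype and 4754, 6012, 1268 and 3233 in knockout hearts. For the cartilage and valve list of 6, 5 with an adjusted p, Comp was higher and Chad lower (2 higher and 1 lower without replicate 3). The sum of this list was 197 to 345 in wildtype and 396, 1029, 257 and 1422 in knockout hearts. Mural and smooth muscle markers gave 2 of 8 lower (Myh11 and Acta2; 3 without replicate 3), with sums of 19300 to 20537 in wildtype and 18276, 14319, 14096 and 16857 in knockout hearts. Of 5 epicardial markers Msln was higher (sums 115 to 167 in wildtype and 142, 493, 248 and 205 in knockout hearts). The skeletal muscle list of 5 was Acta1, Ckm, Myh1, Myh4 and Mybpc2, of which 4 had an adjusted p. Acta1 was higher and 2 were lower (sums 28633 to 36149.8 in wildtype and 53779, 35943, 38119 and 26178 in knockout hearts). Whether these transcripts came from skeletal muscle or from cardiomyocytes was not tested, so the sum is no measure of skeletal muscle in the samples. Of 4 adipose and 4 erythroid markers 0 passed in either direction, also at an unadjusted p and with edgeR. The erythroid sum was 15265 to 19689 in wildtype and 10923, 33325, 41070 and 15950 in knockout hearts, so replicate 3 was the highest of the 8 libraries, and the adipose sum was 33.4 to 108 against 101, 26.2, 5.32 and 58.2. No marker was at 0 in all libraries.

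**Figure D5:**
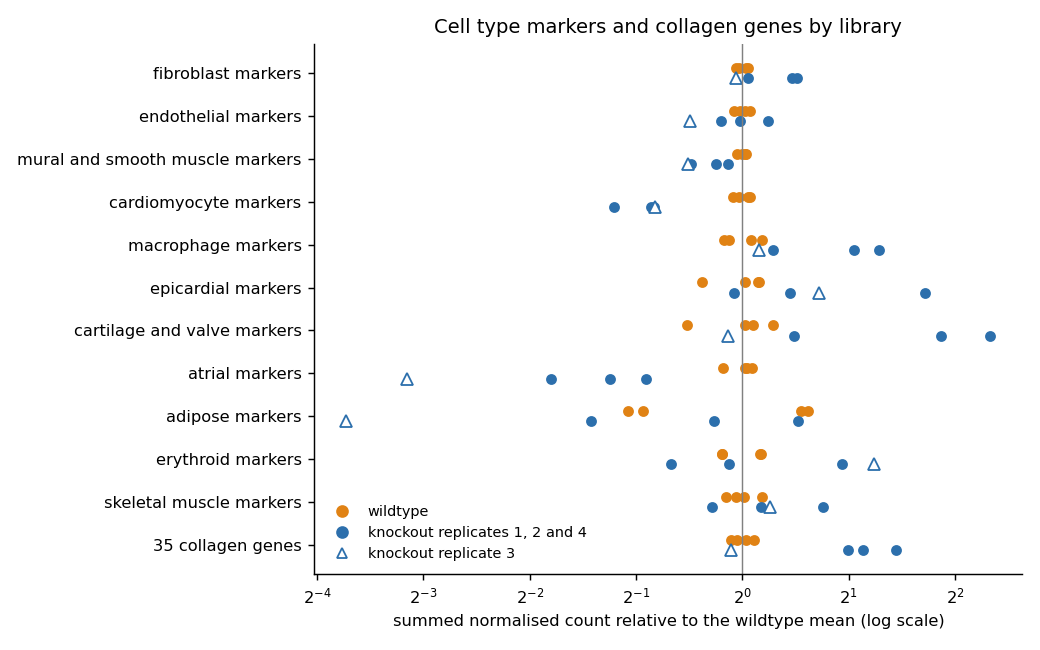
Summed normalised counts of 11 cell type marker lists and of the 35 collagen genes in each library, divided by the wildtype mean, on a log scale. For the collagens 3 knockout libraries lie to the right of all wildtype libraries and knockout replicate 3 (open triangle) lies at their lower edge, and for endothelial markers replicate 3 is the lowest of all 8 libraries.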

How the data were processed

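RNA from 8 whole mouse hearts was sequenced after rRNA depletion. Per the labels and methods, the authors aligned stranded paired-end reads with Bowtie2 and deposited RSEM 1.2.31 expected counts and TPM per gene for each library (mm10, GENCODE M13 with added mitochondrial sequences). RSEM divides reads that match several genes among them. The deposited effective length of each gene (in bases, other than a count) varied between libraries with the isoforms RSEM assigned. A series table of normalised counts with 8 columns that match no label, and a table of the fold changes and p-values of the authors' own comparison, were not used.

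Expected counts were rounded and fitted with DESeq2 1.42.0 in R 4.3.3, on genotype alone, with effective length offsets and the default size factors (medians of ratios), over all 50599 records with Benjamini-Hochberg adjustment. edgeR 4.0.16 quasi-likelihood was an alternative. TPM shares and ratios were recomputed from unrounded values and differed from the deposited TPM by at most 0.961% for values of at least 10. Symbols and positions came from GENCODE M21 (GRCm38), which matched 50339 of 50563 Ensembl identifiers. The scripts were tested on simulated data. Replicates differed by more than counting error (chi-square per degree of freedom 4.40 to 48.4). Members and gene lists were chosen with earlier results of these data known. The rule for named genes took, in each class, up to 3 chains with the largest called change in each direction and the 3 with the highest mean TPM. The text follows chain types, so every other described chain stands among them. Dcn, Lum and Comp sit on 2 lists each. One marker list is not reported here.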

Additional observations from a re-analysis of the deposited data

Results flagged for a closer look

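In 6 of the 84 groups of 4 libraries examined, 1 library lay far from the other 3. Chance alone would give about 4.2 if the groups were independent. They come from the same 8 libraries and are not, so setting 6 against 4.2 decides nothing. The rule takes each group alone and does not weigh that knockout replicate 3 was the lowest knockout library for 27 of the 35 collagens. Among wildtype hearts, replicate 3 had 128 normalised counts of Col6a6 (287 to 316 in the others) and 633 of Col8a1 (413 to 447), and replicate 4 had 5.22 of Col11a1 (10.7 to 11.3). Among knockout hearts, replicate 2 had 169.6 of Col9a2 (35.1 to 52.7) and 59.8 of Col11a1 (14.3 to 21.8), and replicate 3 had a Col8a1 over Col8a2 ratio of 56.0 (23.5 to 27.6).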

How the results depend on the processing

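The directions of the counts, class medians and ratios were kept under the alternatives run, except that the basement membrane median fell under 0 with total-count scaling (-0.23) and the Col3a1 over Col1a1 and Col4a1 over Col4a2 ratios, which had no call, and the share of other chains (0.91 percentage points without knockout replicate 3) changed sign in some settings. The collagens called higher numbered 15 with edgeR, with nuclear size factors, with a filter of at least 10 counts in 4 libraries and with no length offset, 11 with total-count scaling and with a mean of at least 100, 20 with total counts without mitochondrial rRNA (which moved the median of all records with a mean of at least 10 by 0.43), and 13 to 20 when each library was left out. Those called lower numbered 1 with total counts without mitochondrial rRNA and with a mean of at least 100, and 1 to 2 when each library was left out, Col11a2 being the one lost or under that minimum in each of these. Same-numbered libraries did not deviate together (correlations -0.05 to 0.09), so the numbers do not pair them. With replicate number as a block in DESeq2, 12 were higher and 2 lower. Lost were Col3a1 (log2 fold change 1.31, adjusted p = 0.0927), Col4a1 (0.75, adjusted p = 0.12) and Col11a1 (1.44, adjusted p = 0.0609). The ratio tests by sign flips could not go below an exact p of 0.125. The median of the other collagens was 0.39 with no count minimum. With type IV chains alone as basement membrane, the share of other chains changed by -4.87 percentage points. The cause of these shifts was not tested. The low counts of Col9a2, Col11a1, Col7a1 and Col25a1 limit what can be said of them.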
